A study of Homo sapiens with 6 samples.

Results

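Retinoid genes were followed in EndoC-βH1, an established line of insulin-secreting human beta cells. The group comprises 9 genes, chosen by name: the retinaldehyde dehydrogenases ALDH1A1, ALDH1A2 and ALDH1A3, the retinol carrier RBP4, the retinoic acid binding proteins CRABP1 and CRABP2, and the receptors RARA, RARB and RXRA. All 9 are among the 26485 gene symbols of the deposited count table, 8 had at least 1 count and 7 passed the filter on low counts. RNA was sequenced from 6 cultures, all of which carried lentiCRISPRv2, a lentiviral vector with the Cas9 nuclease and an antibiotic resistance gene. The 3 libraries labelled Empty (genotype label WT) came from cells whose vector had no guide RNA. The 3 labelled sgZHX3-3 (genotype label ZHX3 KO) came from cells with 1 guide against the first coding exon of ZHX3, which encodes a zinc-finger homeobox repressor; cells of both groups were selected with an antibiotic and grown on as stable lines. Biological replicates are numbered 1 to 3 within a group, and nothing in the labels says if they are independent lines, so SDs and p-values may measure the spread between cultures only.

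Retinoic acid is made from vitamin A in steps. Retinol travels in blood on RBP4, enters cells through the receptor STRA6, is oxidised to retinaldehyde, and is then turned irreversibly into retinoic acid by the ALDH1A enzymes. CRABP proteins carry retinoic acid in the cell, RAR-RXR pairs bind it on DNA, and CYP26 enzymes break it down. In the pancreas retinoic acid is needed for the organ to form, and ALDH1A3 is known as a marker of beta cells that lose their mature identity.

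Of the 7 members that could be tested, RBP4 and RXRA were higher in the libraries labelled sgZHX3-3 and none was lower, by edgeR's quasi-likelihood test with Benjamini-Hochberg adjustment over all genes at 0.05. DESeq2 and limma-voom also called 2 members higher and 0 lower, and 0 were lower at an unadjusted edgeR p under 0.05. Over the whole table that test called 12.1% of 16199 genes, 7.11% as higher and 4.98% as lower. At an unadjusted edgeR p under 0.05, 3 of the 7 members and 4560 of all 16199 tested genes passed in either direction. The latter is the background for every count at that cutoff below. RBP4 rose 1.51-fold and RXRA 1.29-fold. ALDH1A1, the enzyme gene that supplied nearly all ALDH1A reads, was at 0.957-fold and did not pass. ALDH1A3 had no count in any library and RARB had 2 counts in all. The median log2 fold change over the 7 tested members was 0.19, beside −0.002 over all tested genes, and 3 of the 7 had groups that did not overlap, against 32% of all tested genes.

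**Figure D1:**
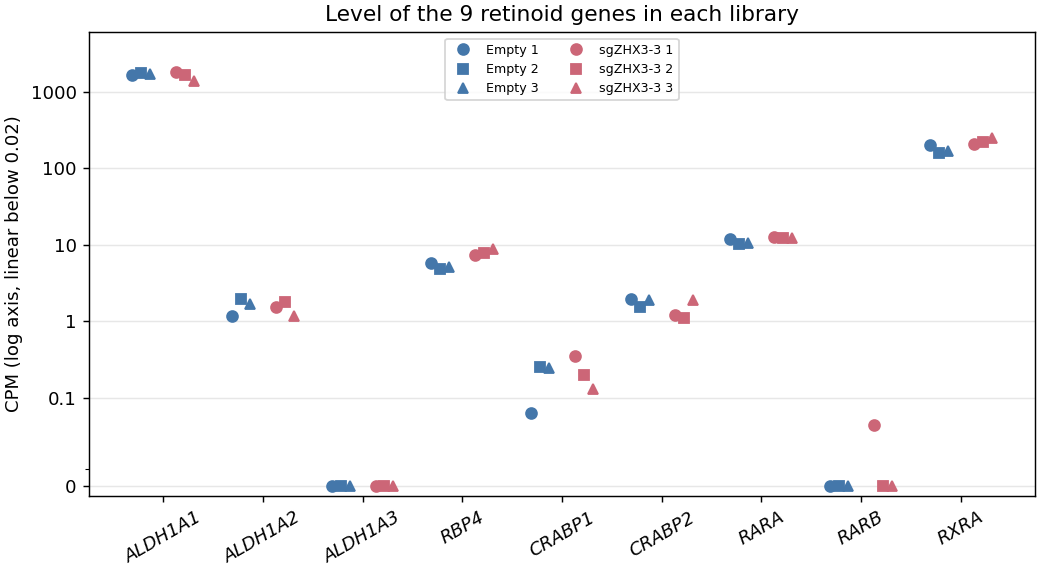
Level of each of the 9 genes in each library, in CPM (counts per 1000000 counts of a library) with TMM library sizes, on a log axis that is linear below 0.02; blue is Empty, red is sgZHX3-3, and circles, squares and triangles are replicates 1, 2 and 3. ALDH1A1 lies at 1398 CPM or above in all 6 libraries and ALDH1A3 at 0 in all 6, while the groups separate for RBP4, RARA and RXRA.

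Promoter sequences are shown for the genes at the extremes of level and change: ALDH1A1 (the most abundant member), ALDH1A3 (no counts), RARB (2 counts) and RBP4 (the larger rise). They are RefSeq windows on GRCh38.p14 from 250 bases before to 50 after an annotated gene start, written 5′ to 3′ on the gene's strand. The 9 genes have 18 such windows between them, since several have more than 1 start. Capitals mark a CCAAT box, a TATAAA box or a direct repeat of the retinoid receptor element with 5 bases between its copies (DR5), and offsets are counted with the start at 0.
ALDH1A1, minus strand, chr9:72953004-72953303: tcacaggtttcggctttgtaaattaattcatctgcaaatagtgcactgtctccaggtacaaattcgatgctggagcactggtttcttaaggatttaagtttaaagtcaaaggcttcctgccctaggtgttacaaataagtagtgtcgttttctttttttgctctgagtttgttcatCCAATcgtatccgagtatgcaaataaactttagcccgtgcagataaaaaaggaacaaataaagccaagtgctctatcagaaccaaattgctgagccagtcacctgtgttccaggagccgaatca
ALDH1A3, plus strand, chr15:100879581-100879880: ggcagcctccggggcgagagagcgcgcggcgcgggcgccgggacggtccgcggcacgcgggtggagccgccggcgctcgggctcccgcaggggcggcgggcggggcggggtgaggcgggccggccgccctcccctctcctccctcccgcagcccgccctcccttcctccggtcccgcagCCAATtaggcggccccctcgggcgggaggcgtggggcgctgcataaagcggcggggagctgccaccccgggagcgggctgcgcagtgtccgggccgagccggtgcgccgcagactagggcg
RARB, plus strand, chr3:25428013-25428312: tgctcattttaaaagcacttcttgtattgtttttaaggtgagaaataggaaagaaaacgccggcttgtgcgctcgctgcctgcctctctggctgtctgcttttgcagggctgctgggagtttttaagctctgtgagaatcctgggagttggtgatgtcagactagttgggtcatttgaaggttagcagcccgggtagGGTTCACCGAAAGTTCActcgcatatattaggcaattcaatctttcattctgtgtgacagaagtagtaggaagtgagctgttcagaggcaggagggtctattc
RBP4, minus strand, chr10:93601186-93601485: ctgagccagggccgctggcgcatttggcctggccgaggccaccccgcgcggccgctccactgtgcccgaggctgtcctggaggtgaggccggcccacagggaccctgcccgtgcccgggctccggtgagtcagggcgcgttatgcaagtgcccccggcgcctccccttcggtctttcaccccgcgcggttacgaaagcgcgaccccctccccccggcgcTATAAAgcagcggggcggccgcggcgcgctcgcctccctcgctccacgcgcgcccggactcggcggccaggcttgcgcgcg

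The promoters of ALDH1A1 and ALDH1A3 both hold CCAAT on the gene's strand at nearly the same place, −74 to −70 and −71 to −67, and one of the ALDH1A2 windows holds it at −62 to −58. CCAAT boxes are bound by NF-Y, a factor that ZHX proteins are known to bind. The box was searched on both strands and was found in 5 of the 18 member windows, against 34.6% of 35116 windows of all genes. The others were in RARA, on the opposite strand at −78 to −74, and in RBP4, at −149 to −145. The box was thus no more common among the members than over all windows. The copies of the repeat were AGGTCA or a close variant. The variants were GGGTCA and AGTTCA. The last variant was GGTTCA. Any pairing of these copies with 5 bases between them was searched on both strands. RARB was the 1 member with a DR5 match, at −53 to −37, and 0.088% of all windows hold one. No member window held such a repeat with a spacing of 1 or 2. TATAAA, searched on both strands, was found in 3 member windows, all of RBP4, and in 11.5% of all windows. The RBP4 copy shown lies at −31 to −26. The other RBP4 windows, 93601464 to 93601763 and 93601695 to 93601994, overlap and hold the same stretch, which is therefore counted in both. A match is a run of letters and was not tested for binding.

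Among the enzymes that make retinoic acid, ALDH1A1 was by far the most abundant. In GRCh38 ALDH1A1 occupies chromosome 9 from 72900662 to 73080442, minus strand. Its level was 1640, 1752 and 1717 CPM in Empty 1, 2 and 3, and 1813, 1677 and 1398 CPM in the sgZHX3-3 libraries. The highest and the lowest value both lay in the sgZHX3-3 group, so the Empty values fell within its range. The means were 1703 ± 57.6 and 1629 ± 211 CPM (SD, n = 3 each), which gave a log2 fold change of −0.06, 95% interval from −0.24 to 0.11 (edgeR adjusted p = 0.644). The interval runs from 0.849-fold to 1.08-fold. Without sgZHX3-3 library 3 the value was 0.035. By mean CPM ALDH1A1 ranked 13 among all genes of the table, and per kilobase of annotated exon it ranked 8.

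ALDH1A2, the enzyme gene known for supplying retinoic acid in the embryo, was scarce. The gene occupies chromosome 15 from 57953424 to 58497866, minus strand. Its counts were 55, 118 and 82 in Empty and 69, 90 and 72 in sgZHX3-3, or 1.18 to 1.99 CPM against 1.19 to 1.80 CPM. The groups overlapped over most of their ranges. Its log2 fold change was −0.11 with an interval from −0.60 to 0.37 (edgeR adjusted p = 0.790). The sign turned without Empty 2 (0.080), without sgZHX3-3 library 3 (0.044) and without Empty 2 and 3 (0.36), so no direction can be given. On the opposite strand the GENCODE span of ALDH1A2 overlaps LIPC, which rose by 0.52 (edgeR adjusted p = 0.000721). The exons of LIPC and ALDH1A2 share 0 bases. Whether ALDH1A2 reaches LIPC from its RefSeq starts was not checked.

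ALDH1A3, on the plus strand of chromosome 15 from 100877714 to 100916626, had 0 counts in all 6 libraries. A count of 0 allows up to 3 counts, which corresponds to 0.0498 to 0.0671 CPM depending on the library; such limits and the count intervals used here cover counting error only. Per length, ALDH1A1 made up 99.96% to 99.98% of the summed ALDH1A level in every library. This is the share in RPKM, which is CPM per kilobase of annotated exon; in that unit ALDH1A1 ranged from 491 to 636 and ALDH1A2 from 0.136 to 0.231. In bulk RNA, fewer cells that express a gene and less RNA per cell cannot be told apart.

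RBP4, the carrier that brings retinol to cells, showed the larger rise of the members. The gene occupies chromosome 10 from 93591687 to 93601744, minus strand. Empty 1, 2 and 3 had 274, 291 and 255 counts, and the sgZHX3-3 libraries had 332, 394 and 526. In CPM these were 5.86, 4.92 and 5.19 against 7.43, 7.90 and 8.73, so that each sgZHX3-3 library lay above each Empty library. The mean went from 5.32 ± 0.483 to 8.02 ± 0.659 CPM (SD, n = 3 each), or 0.60 on the log2 scale (standard error 0.109, interval from 0.36 to 0.83), at an edgeR adjusted p = 0.00443. The size of this change exceeded that of 95.7% of the tested genes. With any 1 library left out it stayed between 0.53 and 0.67, with adjusted p from 0.00151 to 0.0323. When both Empty 2 and Empty 3 were dropped it was 0.46 and did not pass (adjusted p = 0.190); that fit takes the spread of Empty 1 from the other group.

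The intracellular carriers were scarce. CRABP2, which delivers retinoic acid to receptors, occupies chromosome 1 from 156699606 to 156705816, minus strand. Its counts were 91, 91 and 93 in Empty and 55, 56 and 114 in sgZHX3-3. In CPM, sgZHX3-3 libraries 1 and 2 (1.23 and 1.12) lay below the Empty libraries (1.54 to 1.95), while library 3 (1.89) lay among them. The log2 fold change was −0.32 with an interval from −0.78 to 0.15 (edgeR adjusted p = 0.367). It was negative under every alternative run, from −0.60 to −0.18, and passed under none. CRABP1, on the plus strand of chromosome 15 from 78340324 to 78348230, had 3, 15 and 12 counts in Empty and 16, 10 and 8 in sgZHX3-3. With so few counts each value is loose: the 3 counts of Empty 1 have a 95% Poisson interval from 0.619 to 8.77. Its log2 fold change of 0.21 had an interval from −0.92 to 1.33 (edgeR adjusted p = 0.836), and the sign turned without Empty 1 or without sgZHX3-3 library 1.

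Of the receptors, RXRA, the partner with which RARs and several other nuclear receptors bind DNA, was higher in the sgZHX3-3 libraries. RXRA lies on the plus strand of chromosome 9 from 134317098 to 134440585. It was at 203, 157 and 167 CPM in Empty 1, 2 and 3, and at 211, 218 and 250 CPM in the sgZHX3-3 libraries. The groups did not overlap, but Empty 1 lay closer to sgZHX3-3 library 1 than to the other Empty libraries. The means were 176 ± 24.03 and 226 ± 21.1 CPM (SD, n = 3 each), or 0.37 on the log2 scale (standard error 0.0927, interval from 0.16 to 0.57), at an edgeR adjusted p = 0.0270. It missed the threshold when Empty 2 was dropped (0.29, adjusted p = 0.0976), and likewise for Empty 3 (0.34, 0.116), sgZHX3-3 library 2 (0.39, 0.0606) and sgZHX3-3 library 3 (0.29, 0.103). When both Empty 2 and Empty 3 were dropped the value was 0.16 (0.490). RXRA spans 123488 bases, and with an offset for gene span it was at 0.34 with an adjusted p of 0.0804. Of all tested genes spanning 100 to 300 kb, 11.5% were higher and 2.9% lower.

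The libraries in which RXRA was lowest were also those in which genes of the oxidative stress response were highest. NQO1, a quinone reductase gene of that response, was at 75.1, 158 and 172 CPM in Empty 1, 2 and 3 and at 38.8, 42.8 and 30.5 CPM in the sgZHX3-3 libraries. HMOX1, TXNRD1 and SRXN1 had the same order of Empty 1 below Empty 2 and 3, with every sgZHX3-3 library below Empty 1. Of the members whose groups did not overlap, RBP4 and RARA shared with RXRA that Empty 1 lay nearest to the sgZHX3-3 libraries. ALDH1A1, whose groups overlapped, also had Empty 1 (1640 CPM) nearest to the sgZHX3-3 mean (1629 CPM). The share of all genes with this order was not counted. The part of the stress genes in these results was not tested.

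RARA, the main retinoic acid receptor gene of this culture, missed the threshold. RARA lies on the plus strand of chromosome 17 from 40309192 to 40357643. Its values were 11.9, 10.4 and 10.7 CPM in Empty and 12.8, 12.5 and 12.4 CPM in sgZHX3-3. The sgZHX3-3 libraries lay close together and just above Empty 1. The log2 fold change was 0.19 with an unadjusted interval from 0.01 to 0.37 (edgeR adjusted p = 0.155), and it passed without Empty 1 (0.26, adjusted p = 0.0446). The antisense gene RARA-AS1 shares 556 exon bases with RARA and had 39 to 57 counts beside 523 to 747 for RARA. Whether counting used strand is not known here, so reads in the shared part cannot be told apart.

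RARB, the receptor gene whose DR5 element is shown among the promoters, was barely detected. It lies on the plus strand of chromosome 3 from 25174332 to 25597932. It had 2 counts in sgZHX3-3 library 1 and 0 in the other libraries, which is under the limit that a count of 0 allows in each. RARB is a textbook target of retinoic acid itself, and at this depth no difference between the groups was detectable. TOP2B, on the opposite strand, shares 28 exon bases with it.

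**Figure D2:**
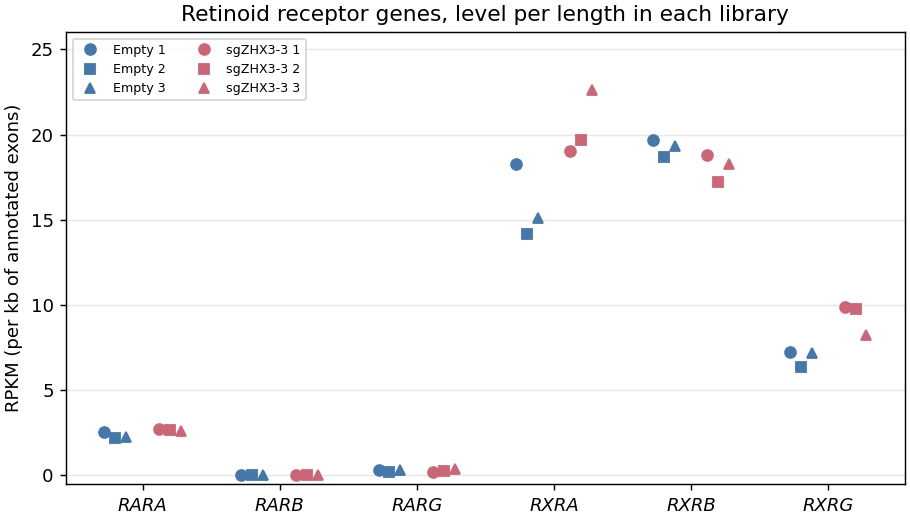
Level per length (RPKM, CPM per kilobase of all annotated exons) of the 6 retinoid receptor genes in each library, with the same colours and symbols for groups and replicates. RARA exceeds RARG and RARB in every library, RXRA and RXRB lie between 14.2 and 22.6, and RXRG is higher in all sgZHX3-3 libraries than in any Empty library.

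Set beside the rest of its family, RARA held 87.9% to 92.1% of the summed RAR level per length, RARG 7.46% to 12.1%, and RARB at most 0.414%. The order RARA, RARG, RARB held in all 6 libraries and in both groups. RXR RNA was more abundant than RAR RNA: RXRA ranged from 14.2 to 22.6 RPKM and RXRB from 17.2 to 19.7 RPKM, against 2.20 to 2.70 RPKM for RARA. Which of RXRA and RXRB is the more abundant depends on the gene length used. Per length of the union of annotated exons (11083 bases for RXRA) RXRB lay above RXRA in the Empty libraries. Per length of the main annotated transcript (1846 bases for RXRA) RXRA lay above RXRB in all 6, at 85.0 to 136 against 23.2 to 26.5 RPKM. Both lengths divide the count of the whole gene. Any RXRA reads outside the main transcript thus make its level and share too high by that length. RXRG, at 7.25, 6.34 and 7.18 RPKM in Empty and 9.88, 9.74 and 8.23 RPKM in sgZHX3-3, was the least abundant RXR gene by either length. Per length of the exon union RXRA made up 40.5%, 36.1% and 36.3% of the summed RXR level in Empty and 39.9%, 42.2% and 46.0% in sgZHX3-3. Per length of the main transcript the same shares were 75.3%, 71.7% and 71.9% against 74.9%, 76.6% and 79.2%. By either length they overlapped between the groups.

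Around the members, 100 other genes of the pathway were listed by role, and 65 of them could be tested. Of these 7 were higher (10.8%) and 1 lower (1.54%), where 7.11% and 4.98% of all tested genes were called, with a median log2 fold change of 0.10 beside −0.002 over all tested genes. The shares of 7.11% and 4.98% are the background for the calls of each list below. Among 7 tested genes of retinol uptake and binding 2 were higher and 0 lower by edgeR, DESeq2 and limma-voom alike, with 1 lower (FABP5) at an unadjusted edgeR p under 0.05. STRA6, the cell surface receptor for RBP4, was at 114, 104 and 105 CPM in Empty and 134, 138 and 149 CPM in sgZHX3-3. Like its ligand gene, it was higher in each sgZHX3-3 library than in any Empty library, at 0.38 on the log2 scale (standard error 0.0601, edgeR adjusted p = 0.00165). STRA6 passed whichever single library was dropped, but not when both Empty 2 and Empty 3 were (0.30, adjusted p = 0.126). LRP2, an endocytic receptor that takes up RBP4, had 27, 16 and 13 counts in Empty and 39, 34 and 52 in sgZHX3-3, at 1.14 (adjusted p = 0.0359). Dropping any single library except Empty 1 raised its adjusted p above the threshold, up to 0.160. LRP2 also missed it with an offset for gene span (1.06, adjusted p = 0.0570), and was at 0.48 (0.604) when both Empty 2 and Empty 3 were dropped. TTR, the blood partner of RBP4, was at 1147 ± 118 and 1246 ± 56.7 CPM (SD, n = 3 each) and did not pass (0.12, adjusted p = 0.293). FABP5 (−0.25) and RBP5 (0.33) did not pass either.

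**Figure D3:**
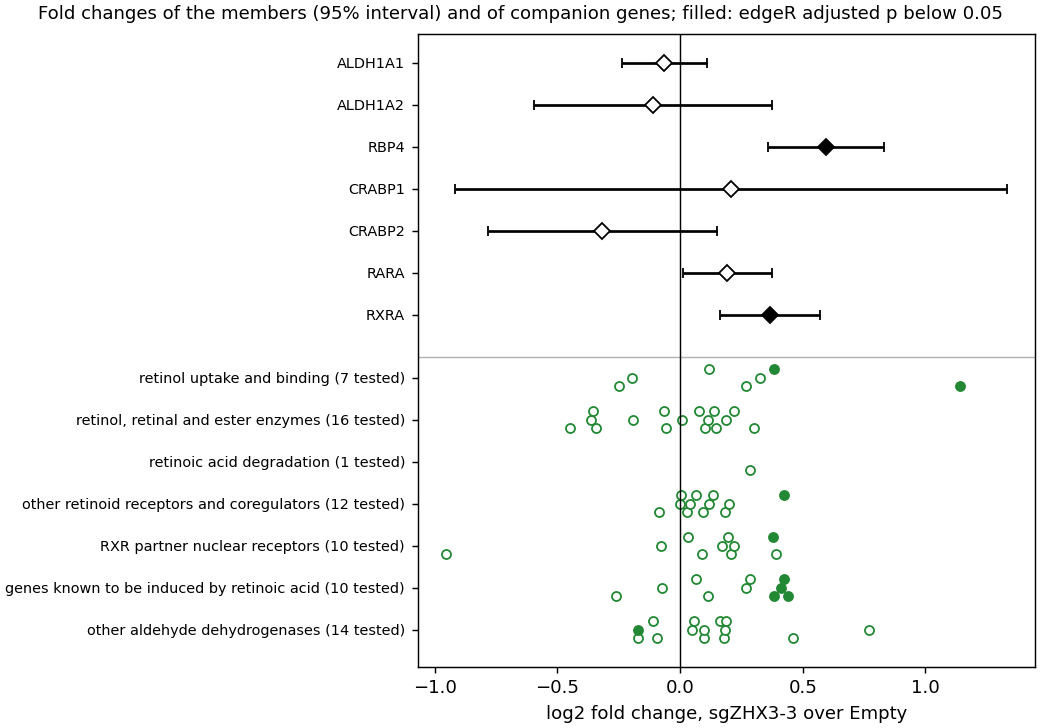
Log2 fold change of sgZHX3-3 over Empty, for the 7 tested members with 95% intervals (diamonds) and for the tested companion genes of each list (circles, 1 per gene); filled symbols passed edgeR at an adjusted p of 0.05. RBP4 and RXRA are the filled members, and the retinol and retinal enzyme list has no filled gene.

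Among 16 tested genes for the retinol, retinal and ester enzymes, which act around the ALDH1A step, 0 were higher and 0 lower by edgeR, DESeq2 or limma-voom. At an unadjusted edgeR p under 0.05, 0 were higher and 2 lower (BCO2 and RETSAT). The retinol dehydrogenase genes RDH11 and RDH10 were at 0.08 (edgeR adjusted p = 0.428) and 0.15 (0.575), and ADH5 was at −0.06 (0.511). Of the degrading enzymes only CYP26B1 could be tested, with 18 to 37 counts a library (0.28, adjusted p = 0.613). CYP26A1, like RARB a textbook target of retinoic acid, had 7, 3 and 5 counts in Empty and 1, 0 and 9 in sgZHX3-3. Among 14 tested genes of other aldehyde dehydrogenases 0 were higher and 1 lower with each of the 3 tools, and 3 were higher at an unadjusted edgeR p under 0.05 (ALDH2, ALDH5A1 and ALDH1B1). The lower gene was ALDH9A1, which acts on aminoaldehydes, at 113, 111 and 115 CPM in Empty and 102, 100.1 and 99.6 CPM in sgZHX3-3 (−0.17, adjusted p = 0.0428). Dropping any single library except Empty 1 raised its adjusted p above the threshold, up to 0.198. ALDH9A1 also missed it with no expression filter (adjusted p = 0.0508), with an offset for gene span (−0.14, 0.0698) and when both Empty 2 and Empty 3 were dropped (−0.16, 0.333). ALDH7A1 (0.05), ALDH5A1 (0.19) and ALDH18A1 (−0.11) did not pass.

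Among 12 tested genes of other retinoid receptors and coregulators 1 was higher and 0 lower with each of the 3 tools, and 0 were lower at an unadjusted edgeR p under 0.05. RXRG, the third RXR gene, was at 19.5, 17.1 and 19.3 CPM in Empty and 26.6, 26.3 and 22.2 CPM in sgZHX3-3 (0.42, adjusted p = 0.00826). Its adjusted p was 0.0504 without Empty 2, 0.0545 without sgZHX3-3 library 2, and 0.206 (at 0.36) when both Empty 2 and Empty 3 were dropped. The corepressor gene NCOR1 (0.18, adjusted p = 0.0738) and the coactivators EP300 (0.12) and CREBBP (0.13) did not pass.

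Of 10 tested nuclear receptors that pair with RXR, 1 was higher and 0 were lower with each of the 3 tools. At an unadjusted edgeR p under 0.05, 5 were higher and 1 (THRB) lower, where 4560 of all 16199 tested genes passed in either direction. THRA, a thyroid hormone receptor gene, was at 39.9, 31.1 and 31.6 CPM in Empty and 40.7, 43.8 and 48.8 CPM in sgZHX3-3 (0.38, edgeR adjusted p = 0.0249). As for RXRA, Empty 1 lay next to the sgZHX3-3 libraries, and when both Empty 2 and Empty 3 were dropped THRA was at 0.16 (adjusted p = 0.555). Its adjusted p was also over the threshold without Empty 2 (0.115), without Empty 3 (0.119), without sgZHX3-3 library 2 (0.0796) and without sgZHX3-3 library 3 (0.103). PPARA (0.17), PPARD (0.20) and NR4A1 (0.22) did not pass.

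Of 25 genes known to be induced by retinoic acid, 9 had no count in any library and 10 could be tested. Of these 10, 4 were higher and 0 lower with each of the 3 tools, with 0 lower at an unadjusted edgeR p under 0.05. Over all tested genes edgeR called 7.11% higher and 4.98% lower. The 4 higher genes were STRA6, which is also counted in the uptake list above, and 3 others. MEIS2, a homeobox factor, was at 258, 224 and 217 CPM in Empty and 315, 314 and 310.1 CPM in sgZHX3-3 (0.43, edgeR adjusted p = 0.00123). RET, a receptor tyrosine kinase, was at 58.6, 48.3 and 45.7 against 65.3, 67.9 and 73.9 CPM (0.44, adjusted p = 0.00609). The groups did not overlap for either gene, and both passed whichever single library was dropped. When both Empty 2 and Empty 3 were dropped MEIS2 was at 0.28 (adjusted p = 0.0763) and RET at 0.24 (0.271). RARRES1 was at 0.41 (0.0483), and dropping any single library except Empty 1 raised its adjusted p above the threshold, up to 0.203. RARRES1 also missed it with library totals as the only scaling (0.38, 0.0606), and was at 0.20 (0.602) when both Empty 2 and Empty 3 were dropped. The receptor-regulated genes NRIP1 (0.06), DHRS3 (0.12) and MEIS1 (−0.07) did not pass.

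**Figure D4:**
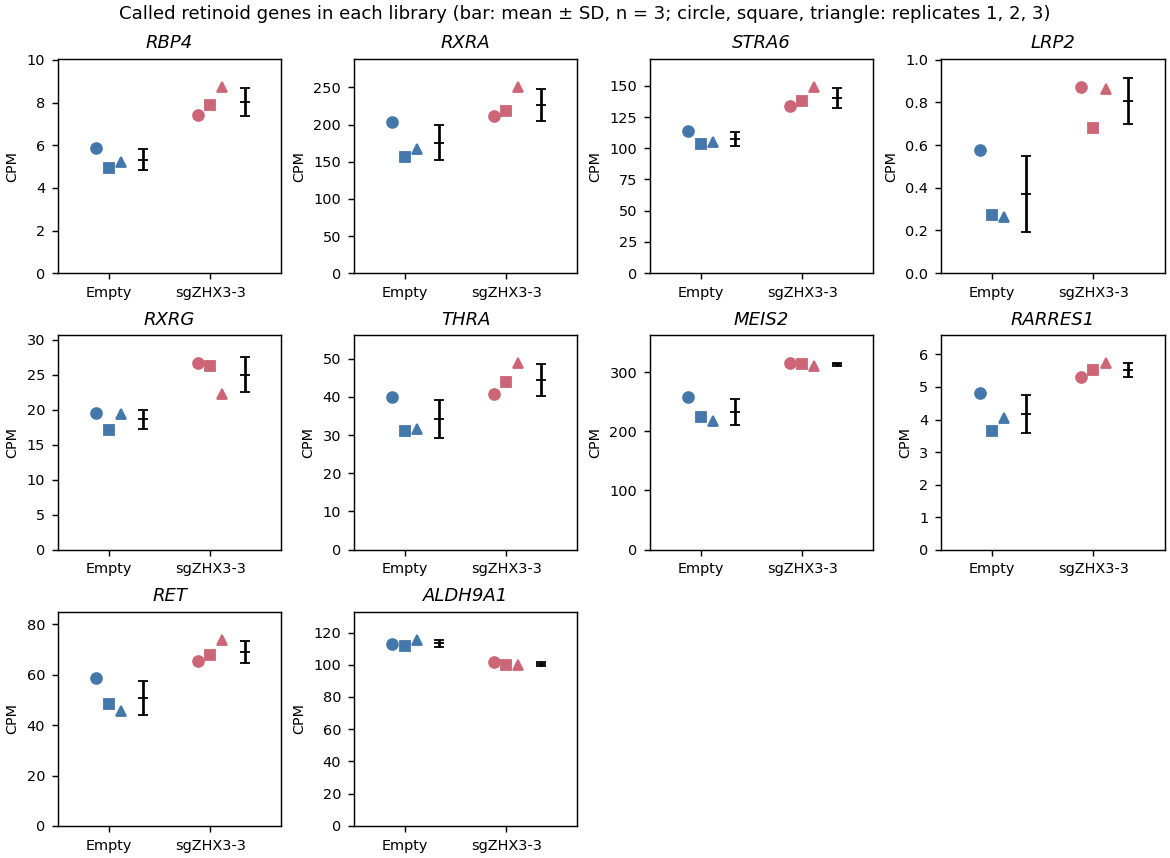
CPM in each library for the 2 called members (RBP4, RXRA) and the 8 called companion genes, on axes that start at 0; circles, squares and triangles are replicates 1, 2 and 3, and the black bars are mean ± SD (n = 3). No gene shown has overlapping groups, which also holds for 32% of all tested genes. The genes shown were picked by passing the test on these same libraries, which itself favours groups that do not overlap. Empty 1 is the Empty library nearest to the sgZHX3-3 group for 9 of the 10 genes, the exception being ALDH9A1. The share of all genes with Empty 1 nearest was not counted, so the 9 of 10 cannot be read as particular to these genes.

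The genes whose pattern over the 6 libraries was most like that of a called member were found by Pearson's r of log2 CPM, among 10443 genes of at least 10 CPM on average for RBP4 and 10442 for RXRA. For RBP4 they were PIP4K2B (r = 0.999), MMP15 (r = 0.998) and STRA6 (r = 0.998). STRA6, its receptor gene, was thus among the 3 nearest. For RXRA they were SPNS1, SVOP and C9orf16 (r = 0.997 each). These values describe 6 libraries that share the difference between the groups, and they were the highest among all the genes compared.

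**Figure D5:**
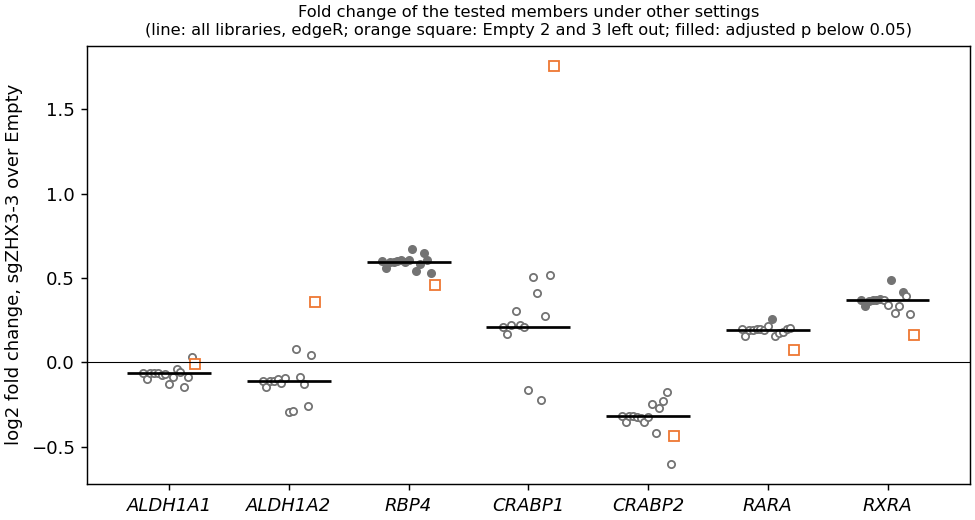
Log2 fold change of each tested member under each alternative (circles) and with Empty 2 and 3 both left out (orange squares); the black line is the value from all libraries and filled symbols passed at an adjusted p of 0.05. RBP4 passes in all settings other than the one without Empty 2 and 3, and RXRA is open in 7 of 15.

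ZHX3 RNA itself was higher in the guide group, at 177 ± 8.62 against 105 ± 4.19 CPM (SD, n = 3 each; log2 fold change 0.75, edgeR adjusted p = 1.62e-05). This goes against reading the label as a loss of RNA, so directions here are those of the libraries as labelled. It does not bear on loss of the ZHX3 protein, which RNA counts do not measure. Total counts ranged from 45101454 to 61051884 a library. Beta cell markers were at 7198 to 8903 CPM in sum in Empty and 8717 to 10230 CPM in sgZHX3-3, with 6 of 8 called, all higher. Alpha cell markers summed to 187 to 216 against 186 to 204 CPM, with IRX2 lower, LOXL4 higher and GCG at or below 0.403 CPM. Delta cell markers, of interest since RBP4 is also known from delta cells, summed to 13.3 to 18.7 against 14.6 to 16.05 CPM with 0 of 3 called, and SST was at 5.95 to 9.96 CPM. Summed ductal markers were at 66.3 to 73.8 against 72.7 to 77.4 CPM, stellate and fibroblast markers at 5.99 to 6.86 against 6.42 to 8.60 CPM, and immune markers at 14.2 to 19.7 against 19.1 to 22.9 CPM, mostly CD68, with PTPRC below 0.1 CPM. Of the acinar list CPA1 was higher and the other 4 were below 1 CPM, with PNLIP at 0. Endothelial markers stayed below 0.1 CPM in sum with CDH5 at 0, PPY was at most 0.0447 CPM, and GHRL was at 1.23 to 2.02 CPM. The part of other cell types in the results was not tested.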

How the data were processed

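RNA of 6 EndoC-βH1 libraries was measured, 3 a group. Libraries were made with a stranded directional kit, per the labels' protocols. STAR, hg38 and featureCounts are named in the submitters' processing notes, without versions; the annotation and the strand setting of the counting are not given there. The authors deposited raw counts for each gene symbol, not normalised, per the file headers. All 6 value columns were matched to samples by group and replicate letter.

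All else was computed from these counts. Genes were kept by filterByExpr (minimum count 10, minimum total 15), which left 16199 genes; libraries were scaled by TMM. The whole table was fitted with the robust quasi-likelihood test of edgeR, with no term but the group, and called at a Benjamini-Hochberg adjusted p of 0.05 over all genes. Standard errors and 95% intervals were derived from the F statistics. Levels per length use GENCODE 29 (GRCh38) exons. The table's symbols matched GENCODE for 90.3%. Versions were Python 3.11.15, matplotlib 3.10.9, R 4.3.3, DESeq2 1.42.0, edgeR 4.0.16 and limma 3.58.1. The procedure was tested on simulated data.

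A pair of listed companion genes was taken out of the lists and their counts after the analysis and is not reported here. The members and lists were chosen with earlier results of these data known, as were the alternatives. The text names all members, ZHX3, called companion genes, up to 3 uncalled ones a list by mean CPM, the 3 genes most like each called member, and 4 stress genes. RARG, RXRB, CYP26A1, LIPC, genes past an unadjusted p, the overlapping genes and the named markers were named after their values were seen. The length of the main transcript was added after seeing the data. Alternatives were RLE factors, library totals, no filter, 1 CPM in 3 libraries, a gene span offset, limma-voom, DESeq2, the replicate block, libraries left out, and an adjusted p of 0.01. Reads were not used here.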

Additional observations from a re-analysis of the deposited data

How the results depend on the processing

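All 7 tested members kept their sign under RLE factors, library totals, both filters, DESeq2, limma-voom, the replicate block and the gene span offset; CRABP1 had no value with DESeq2 or the filter of 1 CPM. With 1 library left out, ALDH1A1 ranged from −0.15 to 0.035, ALDH1A2 from −0.29 to 0.080 and CRABP1 from −0.22 to 0.52, so their signs turned; with Empty 2 and 3 both left out ALDH1A2 was at 0.36. The cause was not tested. The number of higher members was 2, and 1 with the replicate block, the gene span offset or an adjusted p of 0.01, 1 to 3 with 1 library left out, and 0 with Empty 2 and 3 left out; no member was lower in any setting. The number of higher companion genes was 7, and 4 with the block or at 0.01 (all of them among the 7), 3 to 12 with 1 library left out, and 2 with Empty 2 and 3 left out, which were CREBBP and EP300 and none of the 7. The number of lower ones was 1, and 2 with library totals, 0 with no filter, the block, the span offset, 0.01 or Empty 2 and 3 left out, and 0 to 1 with 1 library left out. Over the table as a whole, 1151 genes were higher and 807 lower; these were 516 and 239 with the replicate block, 467 and 194 at 0.01, 209 and 40 with Empty 2 and 3 left out, 474 to 1792 and 184 to 1499 with 1 library left out, and 1272 lower with library totals, against 904 higher. The replicate numbers did not pair the samples. Deviations of same-numbered libraries correlated at −0.138, 0.0685 and −0.142, and no library correlated best with its own number. The block took the calls of RXRA, LRP2, THRA, RARRES1 and ALDH9A1. Depth limits CRABP1, RARB and ALDH1A3, whose counts are too low to show a difference of modest size.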
